A study of Mus musculus with 8 samples.

Results

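Splenic emigrants and thymocytes were compared in mice given corn oil alone. The comparison used 4 of the series' 8 Affymetrix arrays, chosen by their titles: 2 of CD4-negative CD8-negative cells sorted from the spleen (called thymus emigrants in the labels) and 2 of CD4-negative CD8-negative cells sorted from the thymus (called thymocytes). All donors were female C57BL/6 mice aged 6 to 8 weeks that received corn oil intraperitoneally. Thymus cells were marked 5 days later with FITC, a green fluorescent dye injected into the living animal's thymus, and cells were sorted 24 h after that. The other 4 arrays held the same kinds of cells from mice given 10 µg/kg of the dioxin TCDD in corn oil. They entered the estimate of the spread and a comparison at the end. The series' design text describes the sorted cells as FITC-positive, while the sample descriptions name only the CD4-negative CD8-negative sort. Nothing in the labels tells whether the 2 arrays of a group were made from different animals, pools or a split extract. The p-values therefore reflect array-to-array spread only, part of which may be technical. Each value is the RMA level, a log2 probe set intensity from the authors' RMA, a method that corrects background and quantile-normalizes the arrays. A single probe set stood for each of 12394 genes.

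Double-negative thymocytes, which carry neither CD4 nor CD8, are the earliest T cell precursors of the thymus. Notch signals commit them to the T lineage, the RAG recombinase then opens their T cell receptor loci, and a first receptor built with the pre-TCR alpha chain drives a burst of division. Mature T cells leave the thymus after the factor KLF2 has induced the sphingosine-1-phosphate receptor S1PR1 and other homing molecules. Most emigrants carry CD4 or CD8, so emigrants that lack both are an unusual population, and a double-negative gate in the spleen can also hold natural killer (NK) cells, gamma delta T cells, B cells, myeloid cells and erythroid cells.

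The titles were checked against the treatment labels first. The emigrant array titled oil 1 has a Treatment field that names TCDD, and that of oil 2 names dioxane. The Tissue field of oil 2 also names the thymus, against its title. Targets of the aryl hydrocarbon receptor, which TCDD activates, were therefore read in every emigrant array. Cyp1b1, a cytochrome P450, lay at 4.69 and 6.25 in oil 1 and oil 2, against 6.87 and 8.36 in the TCDD emigrants. Ahrr, the receptor's repressor, lay at 3.93 and 3.81 against 5.19 and 7.65, and Scin, an actin-severing protein, at 4.88 and 4.87 against 9.97 and 6.30. For Tiparp, an ADP-ribosyltransferase, the levels were 6.56 and 5.83 against 7.74 and 9.09. Both arrays titled oil thus lay below both TCDD emigrant arrays for each of these 4 genes. Over the full list of 10 targets the mean level was 4.645 and 4.786 in oil 1 and oil 2, against 5.689 and 6.076. Not every member separated the arrays, since Mpzl2 lay at 2.84 and 3.73 against 2.99 and 3.19. The TCDD thymocytes are described as given oil alone, against their titles and Treatment fields, and their mean level over 10 such targets was 6.20 and 6.54, beside 4.89 and 4.99 in the oil thymocytes. Groups follow the titles.

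The sort and the lineage were checked by their markers. Cd4 lay at 5.04 and 5.12 in the oil emigrants and 4.53 and 5.20 in the oil thymocytes, where the medians of these 4 arrays were 4.89, 4.85, 4.81 and 4.85. Cd8a lay at 4.57 and 5.84 and at 5.15 and 6.66. It was thus above the array median in emigrants oil 2 and in both thymocyte arrays, most so in thymocytes oil 2. The pan-leukocyte gene Ptprc was bright in both groups, with emigrants at 12.21 and 11.41 and thymocytes oil 1 at 11.55, as was Cd3e, a chain of the CD3 complex (8.77 and 8.30 and 8.32 and 8.13). Cd79a, the B cell receptor's signalling chain, was below the median of every array (3.94 and 4.04 and 4.04 and 4.17), and so was the haemoglobin gene Hba-a1 (4.58 and 4.74 and 4.65 and 4.56). These single genes do not show that such cells were absent. The B cell gene Ighm lay at 10.55 and 10.24 in the thymocytes, and the erythroid gene Car2 at 9.58 and 7.73 in the emigrants. The NK receptor gene Ncr1 lay close to the medians (4.85 and 4.92 and 5.04 and 4.72). S100a8, an abundant granulocyte transcript, was present in all 4 arrays and higher in thymocytes (8.58 and 7.29 against 9.96 and 9.45). Spearman's rho across genes was 0.967 between the 2 emigrant arrays and 0.959 between the 2 thymocyte arrays, while emigrants oil 2 and thymocytes oil 2 had a rho of 0.970. These correlations run across genes, which are no independent replicates. The 3 prime minus 5 prime signal, a measure of RNA length, was 3.92 and 3.34 for actin in the emigrants and 4.12 and 3.12 in the thymocytes. For Gapdh it was 4.81 and 4.91 in the emigrants and 6.23 and 4.97 in the thymocytes. The Gapdh 3 prime level itself was lower in the emigrants (9.19 and 10.10 against 11.52 and 10.88). Its 5 prime probe set was near the array medians (mean level 5.16). The Gapdh value may therefore follow the gene's level as well as RNA length. The part of RNA length in the results was not tested.

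The 8 genes with the smallest p were Cyp4v3, Klf6, Ahnak, Gpcpd1 and Cotl1, higher in emigrants, and Rgcc, Xrcc6 and Khdc1a, lower in emigrants. None passed the test over all genes. limma, fitted on all 8 arrays with 4 residual degrees of freedom, called 0 of 12394 genes at an adjusted p under 0.05 (0%), and the smallest adjusted p was 0.0595, shared by 4 genes. The unadjusted p was under 0.05 for 1186 genes (9.57%), of which 555 (4.48%) were higher in emigrants and 631 (5.09%) lower. That number was 758 without emigrants oil 1. Both emigrant arrays lay above both thymocyte arrays for 2448 genes (19.8%) and below both for 2428 (19.6%), which makes 4876 genes without overlap (39.3%). The mean was higher in emigrants for 6247 genes (50.4%). A permutation test of 2 arrays against 2 cannot give a two-sided p below 0.333, so array overlap is given as a description. A mean difference over 1 log2 unit was seen for 349 genes in the direction of emigrants and 307 in the direction of thymocytes. In all that follows, "higher" and "lower" describe the 2 arrays of each group, and no gene is said to have changed.

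Among the 10 genes with the smallest p on the emigrant side, Klf6, a Krueppel-like transcription factor of activated and maturing cells, lay at 7.58 and 7.72 in the emigrants and 5.61 and 5.42 in the thymocytes. This is a 4.38-fold higher level (log2 difference 2.13, SE 0.188, limma adjusted p = 0.0595). A dimmer Klf6 probe set (mean level 5.11) gave 0.34, and the average of the gene's probe sets 1.04. Cyp4v3, a fatty acid hydroxylase of the cytochrome P450 family, lay at 7.04 and 6.94 against 5.24 and 5.36 (log2 difference 1.69, SE 0.148, limma adjusted p = 0.0595). In the probe sets used for both genes, the arrays of a group lay far closer to each other than to those of the other source. Ahnak, a giant scaffold protein of the plasma membrane and calcium signalling, lay at 11.06 and 10.96 against 8.46 and 8.47, a 5.83-fold higher level. A dimmer Ahnak probe set (mean level 5.87) gave -0.17. Cotl1, an F-actin binding protein, lay at 11.02 and 10.22 against 8.33 and 8.33 (log2 difference 2.29). Its other probe sets with means above the array median had differences of 0.26, 1.57, 2.16 and 0.38, so the probe sets differ over the size of this difference. Stk17b, a kinase that restrains T cell receptor signalling, lay at 10.91 and 10.58 against 9.09 and 8.39 (4.02-fold higher). Sesn3, a sestrin of the stress and nutrient response, was 3.12-fold higher (9.27 and 8.63 against 7.31 and 7.30). Gpcpd1, a choline phospholipid enzyme, lay at 7.48 and 7.61 against 5.83 and 6.09. The remaining 3, Yaf2, Eps15 and Frrs1, had log2 differences of 1.25, 0.99 and 1.13, and both emigrant arrays lay above both thymocyte arrays in each.

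On the thymocyte side, Xrcc6, which encodes the Ku70 subunit of the DNA end-joining machinery, lay at 8.28 and 8.36 in the thymocytes and 5.83 and 5.75 in the emigrants. This is a 5.79-fold lower level in emigrants (log2 difference -2.53, SE 0.221, limma adjusted p = 0.0595). Rgcc, a regulator of the cell cycle, lay at 10.37 and 10.50 against 8.59 and 8.32 in the emigrants (log2 difference -1.99, SE 0.170, limma adjusted p = 0.0595), and another Rgcc probe set had a difference of -2.19. Khdc1a, a KH-domain RNA-binding protein, lay at 7.31 and 6.96 in the thymocytes. It was below the array medians in both emigrant arrays (3.89 and 4.25), so no fold is given for it. Fkbp5, a co-chaperone of the glucocorticoid receptor, lay at 10.27 and 10.84 against 7.97 and 8.54 (log2 difference -2.30), and its other bright probe set had a difference of -0.48. Notch3, a Notch receptor of early thymocytes, lay at 7.08 and 7.03 against 5.61 and 5.88 (log2 difference -1.31). A dimmer Notch3 probe set (mean level 5.03) gave -0.27. Mpzl2, a thymic adhesion molecule, lay at 5.22 and 5.46 in the thymocytes and below the array medians in both emigrant arrays (2.84 and 3.73). The other 4 were Ebna1bp2, a nucleolar protein of ribosome assembly (log2 difference -1.35), Park7, an oxidative stress sensor (-1.47), and the proteasome subunits Psmc3 (-1.15) and Psmd12 (-1.17).

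**Figure D1:**
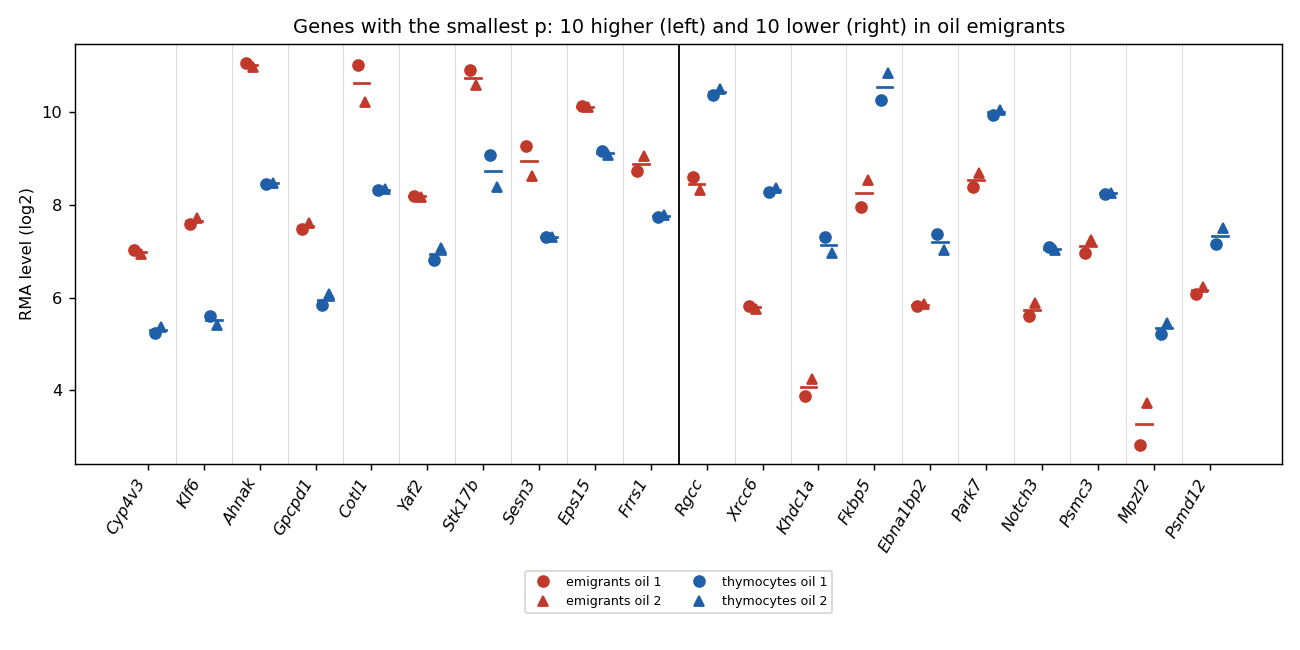
RMA level (log2, y axis) of the 10 genes with the smallest p on the emigrant side (left of the line) and the 10 on the thymocyte side (right), with 1 point for each oil array and a bar at the group mean. The 2 emigrant arrays lie apart from the 2 thymocyte arrays in all 20 genes, as in Klf6 at 7.58 and 7.72 against 5.61 and 5.42, and the arrays of a group differ most in Mpzl2 among emigrants (2.84 and 3.73).

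Genes of recombination and the pre-TCR were lower in the emigrants as a group. Of the 9 measured members of the list, 7 had a lower mean in emigrants. Both emigrant arrays lay below both thymocyte arrays for 6 of the 9 (66.7%, beside 19.6% of all genes). Of the 9, 3 were lower at an unadjusted limma p under 0.05, as were 5.09% of all genes. The median log2 difference was -0.76, beside 0.00 over all genes. It was -0.45 without emigrants oil 1. Ptcra, the pre-TCR alpha chain, lay at 8.83 and 9.20 in the thymocytes and 5.35 and 7.00 in the emigrants (log2 difference -2.84, SE 0.511, limma adjusted p = 0.188). Emigrants oil 2 thus held more of the Ptcra signal than oil 1, and both lay below the thymocytes. Dntt, the terminal transferase that adds bases at receptor junctions, was lower too but bright in every array (9.82 and 10.68 against 12.41 and 12.84). Rag2, a recombinase subunit, lay below the medians of both emigrant arrays (3.93 and 4.56) and close to those of the thymocytes (4.82 and 5.19). Rag1, its partner, lay at 9.85 and 9.33 in the thymocytes, at 9.81 in emigrants oil 2 and at 3.89 in emigrants oil 1. For Rag1, emigrants oil 2 thus lay between the thymocyte arrays, and oil 1 lay below its array median. In bulk samples, fewer cells of a type and less RNA per cell cannot be told apart.

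The stretches of 250 bases before the annotated starts of Ptcra and of Xrcc6, the 2 lower members of this list with the smallest p, are shown to place the E-box (CANNTG, the site read by the E proteins that drive early T cell genes) in them. They come from the RefSeq promoter table of GRCm38.p6, at chr17:46763713-46763962 on the minus strand for Ptcra and chr15:82016119-82016368 on the plus strand for Xrcc6. Each reads 5′ to 3′ along the gene, with E-boxes in capitals.
Ptcra: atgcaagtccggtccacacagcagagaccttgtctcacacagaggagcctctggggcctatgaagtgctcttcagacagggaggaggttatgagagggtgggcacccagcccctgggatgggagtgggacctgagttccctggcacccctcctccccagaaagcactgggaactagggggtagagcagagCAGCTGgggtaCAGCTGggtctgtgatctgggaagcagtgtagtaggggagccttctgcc
Xrcc6: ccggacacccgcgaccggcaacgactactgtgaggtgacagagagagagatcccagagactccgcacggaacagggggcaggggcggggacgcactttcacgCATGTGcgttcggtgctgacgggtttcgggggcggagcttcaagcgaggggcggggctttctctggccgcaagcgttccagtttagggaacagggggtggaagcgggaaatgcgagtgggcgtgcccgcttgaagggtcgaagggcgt
The Ptcra stretch held 2 E-boxes of the same sequence close to the start, and the Xrcc6 stretch held 1. The motif reads as itself on the other strand. It was present in 7 of 8 promoters found for the measured members (87.5%) and in 66.0% of the 27025 promoters of the table, so its presence sets none of these genes apart. A match is a description of letters and not a bound site.

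Surface genes and regulators of the early stages did not all lie on one side. Il2ra, the CD25 chain that marks the middle double-negative stages, lay at 8.11 and 6.88 in the thymocytes and 4.77 and 5.78 in the emigrants (limma adjusted p = 0.304). Emigrants oil 1 was below its array median, so no size is given. Notch1, the receptor that commits cells to the T lineage, was 3.75-fold lower (7.96 and 7.24 against 9.61 and 9.40), and a dimmer Notch1 probe set (mean level 5.47) gave -0.07. Hes1, a direct Notch target, lay at 5.54 and 5.82 against 6.42 and 6.04. The Notch list as a whole did not lean one way. Of 16 members, 3 were lower without overlap (18.8%, beside 19.6% of all genes) and 4 higher (25%, beside 19.8%). Its median was 0.09 (-0.05 without emigrants oil 1). Cd24a, an antigen of immature thymocytes, lay at 9.26 and 9.96 in the emigrants and 11.25 and 11.55 in the thymocytes. Arpp21, a phosphoprotein abundant in thymocytes, lay at 4.94 and 4.84 in the emigrants, which is near the array medians, and 9.07 and 7.03 in the thymocytes. Its 2 other bright probe sets had differences of -1.24 and -0.45. Arpp21 belongs to the list of the double-positive stage. Of that list, 1 of 10 members was higher and 2 were lower without overlap (10% and 20%), with a median of 0.09. Of the list of stem and early progenitor genes, 2 of 17 were higher and 3 lower without overlap (11.8% and 17.6%), with a median of 0.12. Both lists stand beside the same shares of all genes (19.8% higher, 19.6% lower). Each of these medians turned below 0 with 1 oil array left out (-0.05 without emigrants oil 1 for the former, -0.05 without thymocytes oil 1 for the latter). The E protein gene Tcf3 had a difference of -0.89 (-0.56 without thymocytes oil 1). That of Gata3, the T lineage regulator, was -0.67, with a range of -1.04 to -0.29 when emigrants oil 2 or oil 1 was left out. Gfi1, a repressor of early T cells, lay at 7.04 and 6.72 against 7.88 and 7.89. Among T lineage factors, 6 of 18 measured members were lower without overlap (33.3%, beside 19.6% of all genes) and 1 was higher (5.56%, beside 19.8%). The higher one was Runx1 (0.59, or 0.33 without thymocytes oil 1). The median of this list was -0.07, and -0.32 without emigrants oil 1.

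Genes of the T cell receptor complex and its signalling did not lean one way as a list. Of 16 members, 3 were higher without overlap (18.8%, beside 19.8% of all genes) and 3 lower (18.8%, beside 19.6%). The median was 0.21 (-0.16 without emigrants oil 1). Thy1, a surface glycoprotein of T cells, was lower in emigrants (8.48 and 8.57 against 9.41 and 9.37, log2 difference -0.86). Prkcq, the protein kinase C of the T cell synapse, was higher (10.24 and 9.28 against 8.09 and 8.18), and so was the Src-family kinase Fyn (7.61 and 6.70 against 6.30 and 5.53). Among surface genes of early stages, Kit, the stem cell factor receptor, lay at 7.50 and 6.72 in the emigrants and 5.89 and 6.23 in the thymocytes. Cd44, an adhesion receptor of early and of activated T cells, lay at 9.06 and 8.54 against 7.52 and 8.19. Both were thus higher in the emigrants, whereas Il2ra was lower.

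**Figure D2:**
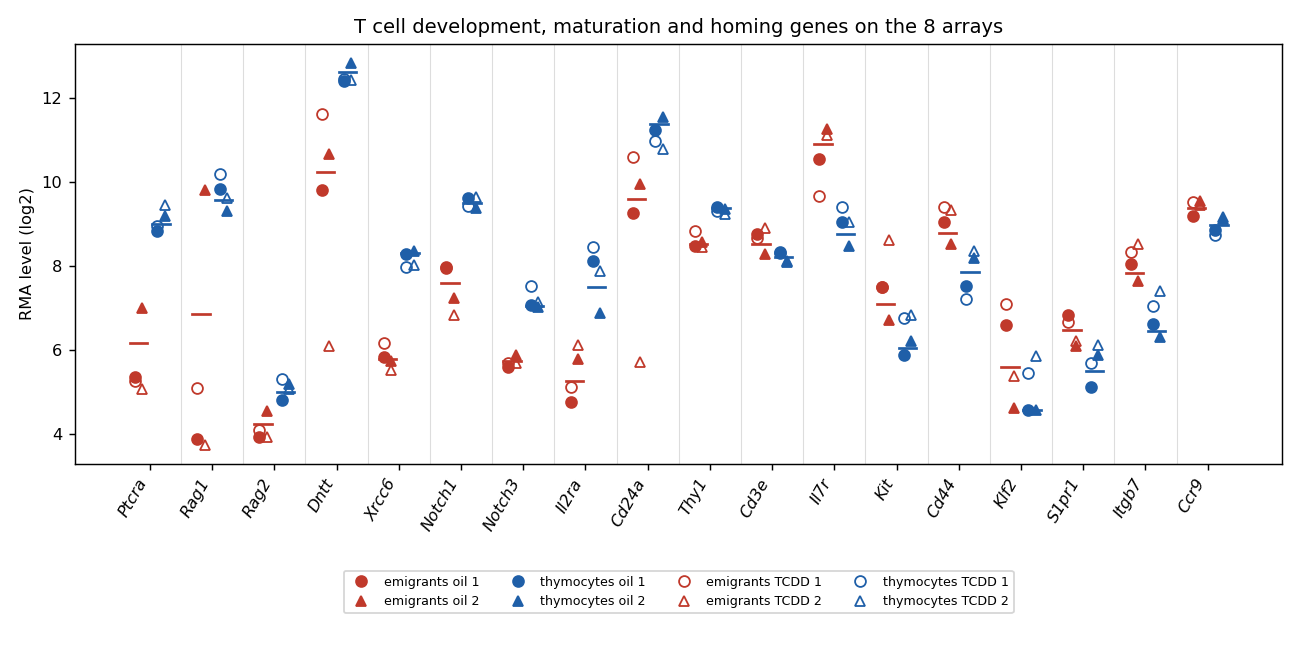
RMA level (log2, y axis) of 18 genes of T cell development, maturation and homing, with 1 point for each of the 8 arrays (filled for oil, open for TCDD) and a bar at the mean of each oil group. Ptcra, Xrcc6, Notch3 and Il2ra lie lower in both oil emigrant arrays, Il7r and Itgb7 lie higher, and Rag1 splits the oil emigrants at 3.89 and 9.81.

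Genes of DNA replication were lower in the emigrants throughout their list. All 29 measured members had a lower mean in emigrants, and 20 were lower without overlap (69.0%, beside 19.6% of all genes). Of the 29, 12 were lower at an unadjusted limma p under 0.05, as were 5.09% of all genes. The median log2 difference was -0.92 (-0.67 without emigrants oil 1). Rfc4, a clamp loader subunit, lay at 4.98 and 5.97 in the emigrants and 7.66 and 8.04 in the thymocytes (log2 difference -2.38, SE 0.423, limma adjusted p = 0.184). Mcm5, part of the replicative helicase, lay at 5.22 and 6.63 against 7.42 and 7.57, and Mcm2 at 8.75 and 8.79 against 9.53 and 9.39. Orc6, of the origin recognition complex, lay at 5.07 and 5.78 against 6.51 and 6.86. Genes of mitosis showed 11 of 27 members lower without overlap (40.7%, beside 19.6% of all genes), 0 higher, and a median of -0.67. Aurkb, a mitotic kinase, lay at 6.17 and 7.14 against 7.90 and 8.14, and Ccnb2, a mitotic cyclin, at 5.45 and 6.57 against 8.04 and 7.44. The 2 emigrant arrays were unlike in both lists. The mean level over the replication list was 6.51 in emigrants oil 1 and 7.26 in oil 2, against 8.03 and 7.80 in the thymocytes, and that over the mitosis list 6.48 and 7.40 against 8.01 and 7.38. Leaving out emigrants oil 2 took the mitosis median to -1.24, and leaving out oil 1 took it to -0.37. Of the glycolysis genes, 7 of 16 were lower without overlap (43.8%, beside 19.6% of all genes) and 3 higher (18.8%, beside 19.8%). Their median was -0.22 and ran from -0.48 without emigrants oil 2 to -0.09 without thymocytes oil 2. Tpi1, an isomerase of the pathway, lay at a difference of -1.09 and Slc16a1, a lactate transporter, at one of -1.52. Pfkp, a phosphofructokinase, went the other way (7.36 and 7.45 against 6.21 and 6.30, log2 difference 1.15).

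Receptors of homing and egress were mostly higher in the emigrants, with 11 of 21 measured members higher without overlap (52.4%, beside 19.8% of all genes). Of the 21, 2 were lower (9.52%, beside 19.6%), and the median was 0.56. Itgb7, the beta chain of the gut-homing integrin and partner of CD103, lay at 8.04 and 7.65 in the emigrants and 6.62 and 6.31 in the thymocytes (2.60-fold higher, SE 0.221 on the log2 scale, limma adjusted p = 0.184). Itgae, the CD103 chain itself, lay at 7.39 and 7.41 against 5.52 and 6.14. Both chains of this integrin were thus higher. Ccr2, a receptor for inflammatory chemokines, was 3.34-fold higher (6.76 and 7.33 against 5.41 and 5.20), and Cxcr3, a receptor for interferon-induced chemokines, lay at 7.38 and 8.64 against 6.33 and 6.75. The sphingosine receptor genes S1pr4 (7.27 and 6.81 against 5.33 and 6.01) and S1pr1 (6.84 and 6.10 against 5.12 and 5.89) were higher in both emigrant arrays. Ccr9, the receptor for a chemokine of thymus and small intestine, was bright in both sources, at 9.19 and 9.56 against 8.86 and 9.12. Its difference was 0.38, ran from 0.20 to 0.57 with 1 oil array left out, and was 1.60 on another bright probe set. With emigrants oil 1 left out the list's median was 0.11, and with oil 2 left out 0.85.

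The stretches of 250 bases before Itgb7 and S1pr4, 2 of the 3 members of this list with the smallest p, are shown with the CACCC box read by Krueppel-like factors, on either strand (CACCC or GGGTG), in capitals. They lie at chr15:102231936-102232185 and chr10:81500138-81500387 of GRCm38.p6, both on the minus strand, and come from RefSeq.
Itgb7: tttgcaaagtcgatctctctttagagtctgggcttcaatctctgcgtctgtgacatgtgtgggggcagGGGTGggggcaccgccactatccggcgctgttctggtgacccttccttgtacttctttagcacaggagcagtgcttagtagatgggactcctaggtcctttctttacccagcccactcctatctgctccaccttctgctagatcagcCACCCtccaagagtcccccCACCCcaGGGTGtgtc
S1pr4: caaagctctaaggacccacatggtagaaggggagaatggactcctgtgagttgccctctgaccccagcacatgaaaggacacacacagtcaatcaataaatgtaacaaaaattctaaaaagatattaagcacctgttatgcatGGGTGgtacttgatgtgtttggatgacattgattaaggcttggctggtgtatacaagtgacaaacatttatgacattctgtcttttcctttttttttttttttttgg
Itgb7 held 4 matches and S1pr4 held 1. Promoters were found for 14 of the 21 measured members of the list. Of these 14, 10 held the box (71.4%), beside 51.3% of the table, and 9 of 16 did so for the maturation factors below (56.2%). The box is thus common across the table, and its presence sets none of these genes apart. As for the E-box, a match is a description of letters and not a bound site.

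Factors of maturation and quiescence were higher in the emigrants for 8 of 17 members without overlap (47.1%, beside 19.8% of all genes). Of the 17, 1 was lower (5.88%, beside 19.6%), and the median was 0.68. Next to Klf6, Foxo1, a driver of the naive T cell programme, lay at 8.58 and 7.32 against 5.83 and 6.79, and its other bright probe sets had differences of 1.69, 0.60 and -0.04. Foxp1, a keeper of quiescence, lay at 9.56 and 8.65 against 8.44 and 7.30, and Btg1, an antiproliferative factor, at 10.74 and 9.85 against 9.41 and 9.18. Ms4a4b, a membrane protein of mature T cells, lay at 11.84 and 10.55 against 8.48 and 9.54 (4.55-fold higher). Klf2, the egress factor, was above the array median in 1 emigrant array only, at 6.59 in oil 1 and 4.62 in oil 2, with the thymocytes at 4.57 and 4.57. Btg2, a relative of Btg1, was the lower member (-0.71). Leaving out emigrants oil 1 took the median to 0.18, and leaving out oil 2 took it to 1.03. GIMAP GTPases, which keep lymphocytes alive, were higher without overlap in 5 of 5 measured members (beside 19.8% of all genes), with a median of 1.53. Gimap4 lay at 10.25 and 10.21 against 7.84 and 8.56 (4.08-fold higher, log2 SE 0.350, limma adjusted p = 0.184). The list's other 3 members were not analysed here.

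The list of common gamma chain cytokine receptors also holds the cytokine gene Il15 and signalling genes. Of its 17 members, 7 were higher without overlap (41.2%, beside 19.8% of all genes) and 2 lower (11.8%, beside 19.6%). The higher ones include Il15, which lay below the medians of all 4 oil arrays, and the signalling genes Cish and Pim1. The list's median was 0.18, and -0.02 without emigrants oil 1. Il7r, the IL-7 receptor chain on which both thymocytes and naive T cells depend, lay at 10.56 and 11.27 in the emigrants and 9.04 and 8.49 in the thymocytes (4.43-fold higher, log2 SE 0.508, limma adjusted p = 0.283). Another Il7r probe set had a difference of 2.64, and the average of its probe sets passed the limma test (adjusted p = 0.0277). Il2rb, the receptor chain shared by IL-2 and IL-15, had a difference of 0.46. Bcl2l11, the death inducer BIM, was 5.04-fold higher, with both emigrant arrays above both thymocyte arrays (7.54 and 8.57 in the latter), and its other bright probe set had a difference of 0.82. Bcl2, the survival factor, had a difference of 0.55. The BCL2 family as a whole had a median of 0.01. Of its 13 members, 4 were higher and 2 lower without overlap (30.8% and 15.4%, beside 19.8% and 19.6% of all genes).

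NK cell receptors and factors were higher in the emigrants for 11 of 15 measured members without overlap (73.3%, beside 19.8% of all genes) and lower for 0. Of the 15, 6 were higher at an unadjusted limma p under 0.05, as were 4.48% of all genes. The list median was 0.85. Eomes, a T-box factor of NK and cytotoxic T cells, lay at 8.22 and 7.75 in the emigrants and 5.11 and 5.62 in the thymocytes (6.16-fold higher, log2 SE 0.393, limma adjusted p = 0.184). A dimmer Eomes probe set (mean level 4.93) gave 0.62. Tbx21, its relative T-bet, lay at 7.01 and 6.36 in the emigrants and below the array medians in the thymocytes (4.63 and 4.80). The lectin receptor chain Klrd1 lay at 9.64 and 9.15 against 6.65 and 6.73 (6.52-fold higher), and Klrg1, an inhibitory receptor of effector cells, at 6.41 and 6.48 against 5.47 and 5.82. The adaptors Hcst (7.83 and 7.39 against 5.91 and 6.71) and Fcer1g (7.58 and 7.53 against 6.01 and 6.74) were also higher in both emigrant arrays. Ncr1, the receptor that defines NK cells among lymphocytes, was close to the medians in both sources, as given above. The NK median was 0.34 without emigrants oil 2.

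Cytotoxic granule and effector genes were higher for 9 of 17 members without overlap (52.9%, beside 19.8% of all genes) and lower for 0, with a median of 0.53 (0.19 without emigrants oil 2). Ccl5, a chemokine of effector lymphocytes, lay at 11.80 and 10.05 against 8.44 and 8.79, and Ifng, encoding interferon gamma, at 7.55 and 8.49 against 4.91 and 6.23. Ctsw, a protease of cytotoxic cells, lay at 8.12 and 7.74 against 6.56 and 6.62 (2.53-fold higher). Nkg7, a granule membrane protein, was 3.73-fold higher. Gzma, encoding granzyme A, did not separate the sources and was bright in all 4 arrays (10.43 and 11.21 against 10.74 and 11.60). Among genes of gamma delta and innate-like T cells, 4 of 10 were higher without overlap (40.0%) and 3 lower, beside 19.8% and 19.6% of all genes. The median was 0.68, and -0.02 without emigrants oil 2. Cd160, a receptor of NK and intraepithelial T cells, lay at 7.03 and 6.46 against 5.31 and 5.10, and Il18r1, the IL-18 receptor, at 7.54 and 9.60 against 6.53 and 5.86. Icos, a costimulator of activated and innate-like T cells, lay at 7.79 and 8.39 against 5.24 and 7.36. Zbtb16, the factor of innate-like T cells, and Etv5, an Ets factor, were 2 of the lower ones, with all 4 arrays below their medians (4.40 and 4.34 against 4.42 and 4.64, and 3.95 and 3.91 against 4.33 and 3.97). The level of Il18r1 was uneven between the emigrant arrays, and that of Icos between the thymocyte arrays.

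**Figure D3:**
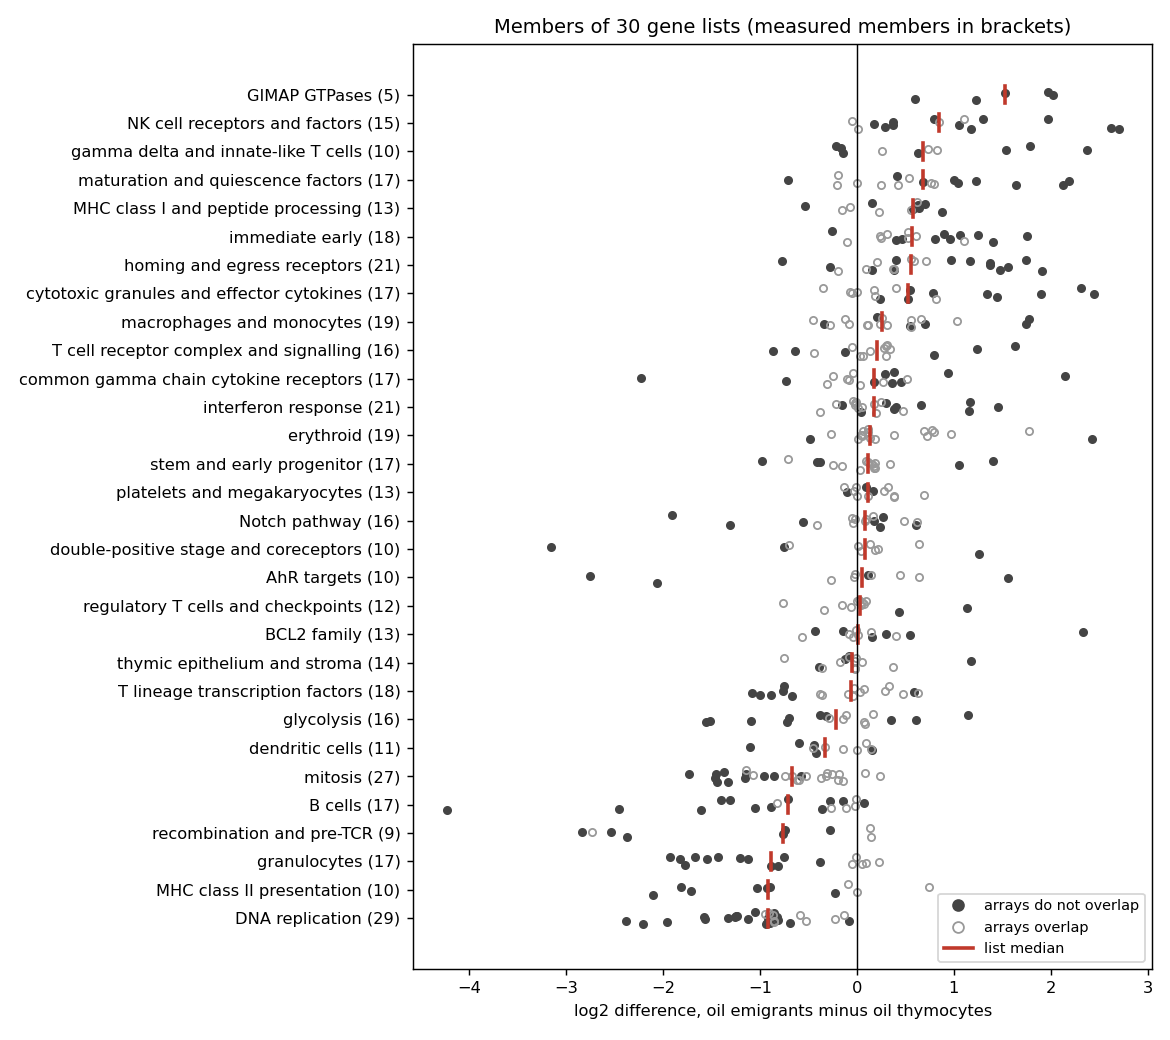
Log2 difference (x axis, oil emigrants minus oil thymocytes) of each measured member of 30 gene lists (y axis), filled where the 2 arrays of one source lie beyond both of the other and open where they overlap, with a red bar at the list median. DNA replication (-0.92) and MHC class II (-0.91) have the lowest medians, in an order that turns without emigrants oil 1, and GIMAP GTPases the highest (1.53).

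Genes of B cells and of MHC class II were lower in the emigrants. Of the B cell list, 11 of 17 measured members were lower without overlap (64.7%, beside 19.6% of all genes) and 1 higher (5.88%, beside 19.8%). The list's median was -0.71 (-0.27 without thymocytes oil 2). Ly6d, a surface protein of early B cells and of thymocytes, lay at 5.60 and 6.62 against 10.26 and 10.43 (log2 difference -4.24, SE 1.19, limma adjusted p = 0.326). Ms4a1, encoding CD20, lay at 5.36 and 4.76 against 6.96 and 8.07. Ighm, the immunoglobulin mu chain, lay at 8.94 and 8.63 against 10.55 and 10.24 (3.06-fold lower), with differences of -1.57, -0.43, -0.64 and -0.39 on its other bright probe sets. Cd79b lay at 5.44 and 4.98 against 6.91 and 6.14. Of the defining B cell genes, Cd79a was thus below the medians throughout while Ms4a1 and Ighm were above them in the thymocytes. The mean level over the list was 5.07 and 5.00 in the emigrants against 5.81 and 6.09 in the thymocytes. MHC class II genes were lower without overlap in 7 of 10 members (70.0%, beside 19.6% of all genes), with a median of -0.91. H2-Eb1 lay at 7.19 and 7.93 against 9.34 and 10.01 (4.32-fold lower, log2 SE 0.446, limma adjusted p = 0.235), and Cd74, the invariant chain, at 5.91 and 6.13 against 7.20 and 6.91. Irf8, a factor of dendritic and B cells, lay at 4.91 and 5.15 against 6.38 and 5.87. Whether such cells account for any of these differences was not tested.

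Granulocyte genes were lower in the emigrants for 12 of 17 members without overlap (70.6%, beside 19.6% of all genes) and higher for 0, with a median of -0.89. It was -0.58 without thymocytes oil 1, and in the TCDD arrays the same list had a median of 0.16. None of these members had an unadjusted limma p under 0.05, which 9.57% of all genes had. S100a9, the partner of S100a8, lay at 7.06 and 6.32 against 9.22 and 8.01, Ngp, a secondary granule protein, at 7.99 and 8.35 against 10.07 and 9.61, and Camp, the cathelicidin, at 5.90 and 5.96 against 7.92 and 7.04. The mean level over the list was 6.03 and 5.64 in the emigrants and 6.93 and 6.50 in the thymocytes. The TCDD emigrants gave a spread for these genes far wider than the oil arrays did, with S100a8 at 10.61 and 5.55, and that spread enters the test.

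Some genes of other cell types were uneven between the 2 emigrant arrays. The erythroid genes Car1, a carbonic anhydrase, and Hemgn, a nuclear factor of red cell precursors, lay at 7.88 and 4.22 and at 6.84 and 4.98 in emigrants oil 1 and oil 2, against 4.20 and 4.35 and 5.30 and 4.59 in the thymocytes. Car2, another carbonic anhydrase, lay at 9.58 and 7.73 against 6.16 and 6.30 and was higher in both. The mean level over the erythroid list was 6.08 in emigrants oil 1, 5.20 in oil 2, and 5.25 and 5.13 in the thymocytes. Macrophage genes showed the opposite split, with a mean level over the list of 5.78 in emigrants oil 1 and 6.81 in oil 2, against 5.75 and 6.05. Mrc1, the mannose receptor, lay at 4.26 and 7.15 in oil 1 and oil 2, and Slc40a1, the iron exporter of macrophages, at 6.48 and 7.45 against 4.58 and 5.79. The macrophage median of 0.26 became -0.31 with emigrants oil 2 left out and 0.87 with oil 1 left out. Between the 2 emigrant arrays 89 genes differed by over 2 log2 units, and 61 did between the 2 thymocyte arrays. The median absolute difference over all genes was 0.187 between the emigrant arrays and 0.268 between the thymocyte arrays. By that measure the thymocyte arrays were the less alike. Of 14 measured stromal genes, 1 was higher and 3 lower without overlap (7.14% and 21.4%, beside 19.8% and 19.6% of all genes). Their median was -0.05. Of the 14, 7 lay below the medians of all 4 arrays. The same share over all genes was not counted. The collagen gene Col1a1 lay at 4.37 and 6.28 in emigrants oil 1 and oil 2, and Epcam, an epithelial adhesion molecule, lay at 5.31 and 5.96 in the emigrants and 5.67 and 7.11 in the thymocytes. Among all genes, 19.8% were higher and 19.6% lower without overlap. Erythroid genes as a list had 1 of 19 members higher and 1 lower (5.26% each), and macrophage genes 5 of 19 higher and 1 lower (26.3% and 5.26%). Dendritic cell genes had 1 of 11 higher and 4 lower (9.09% and 36.4%), with a median of -0.33 (-0.09 without emigrants oil 2). Platelet genes had 2 of 13 higher and 1 lower (15.4% and 7.69%), with a median of 0.11 (0.03 without emigrants oil 1). Regulatory T cell genes had 2 of 12 higher and 0 lower (16.7% and 0%), with a median of 0.03. The part of these cells in any difference was not tested.

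Immediate early genes, MHC class I and interferon genes were higher in the emigrants for part of their lists. Among immediate early genes 9 of 18 were higher without overlap (50.0%, beside 19.8% of all genes) and 1 lower (5.56%, beside 19.6%). The median was 0.57, beside 0.00 over all genes. With 1 oil array left out in turn that median ran from 0.38 (thymocytes oil 1) to 0.98 (thymocytes oil 2). Ier2 lay at 6.18 and 6.75 against 5.49 and 5.31, Jund, an AP-1 subunit, at 8.12 and 7.44 against 5.91 and 6.85, and Fos, its partner, at 8.94 and 9.69 against 6.79 and 8.32. In the MHC class I list 7 of 13 were higher without overlap (53.8%, beside 19.8% of all genes) and 1 lower (7.69%, beside 19.6%). H2-K1 lay at 11.36 and 11.66 against 10.88 and 10.98, and the list's median was 0.58 (0.16 without thymocytes oil 1). In the interferon list 8 of 21 were higher without overlap (38.1%, beside 19.8% of all genes) and 1 lower (4.76%, beside 19.6%). Its median was 0.18 (0.07 without thymocytes oil 1, 0.34 without emigrants oil 2). Gbp2, a GTPase of the interferon gamma response, lay at 7.43 and 8.01 against 6.56 and 6.55, and Igtp, a relative, at 8.30 and 9.44 against 6.94 and 7.90.

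The same contrast of emigrants and thymocytes was read in the 4 TCDD arrays, which share no array with it. Of the 1186 genes with an unadjusted p under 0.05 in oil, 1118 had the same sign there (94.3%) and 908 did not overlap in the same direction (76.6%), beside 70.2% and 30.7% of all genes. These arrays were normalized with the oil arrays, entered the estimate of the spread behind that p, and may share a preparation with them, since deviations of same-numbered oil and TCDD arrays had an r of 0.495 in emigrants and 0.759 in thymocytes. Klf6 lay at 8.19 and 7.80 in the TCDD emigrants and 5.76 and 5.95 in the TCDD thymocytes, nearly the same difference as in oil. Xrcc6 lay at 6.18 and 5.54 against 7.97 and 8.02, and Ptcra at 5.25 and 5.08 against 8.95 and 9.45. For Ptcra the 2 TCDD emigrant arrays lay close together, unlike the oil emigrants. The list medians in the TCDD arrays kept the sign of those in oil for recombination and the pre-TCR (-1.18), DNA replication (-0.68), mitosis (-0.56), B cells (-0.47), MHC class II (-0.62), homing (0.31), maturation (0.42), GIMAP (0.77), NK (0.64), cytotoxic (0.42) and immediate early genes (0.92). The MHC class I median was 0.09. The sign was the other one for interferon genes (-0.06), the T cell receptor complex (-0.44), the Notch pathway (-0.19), glycolysis (0.13) and granulocytes (0.16). It also turned for regulatory T cell genes (-0.01). The lists not named here kept their sign. None of these differences between lists was tested.

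The difference between the differences was tested for every gene. limma called 0 of 12394 genes for it (smallest adjusted p = 1.00), with 146 at an unadjusted p under 0.05 (1.18%). Gpcpd1 had a difference of 1.58 in oil and 0.35 in TCDD, Sesn3 of 1.64 and 0.45, and Eomes of 2.62 and 0.65. The Eomes levels in the TCDD arrays were 6.24 and 5.22 for emigrants and 4.84 and 5.33 for thymocytes. Itgae, which is also a target of the aryl hydrocarbon receptor, had a difference of 1.56 in oil and -0.43 in TCDD. Its thymocyte arrays lay at 7.43 and 8.58 under TCDD, above both TCDD emigrant arrays (7.47 and 7.69).

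**Figure D4:**
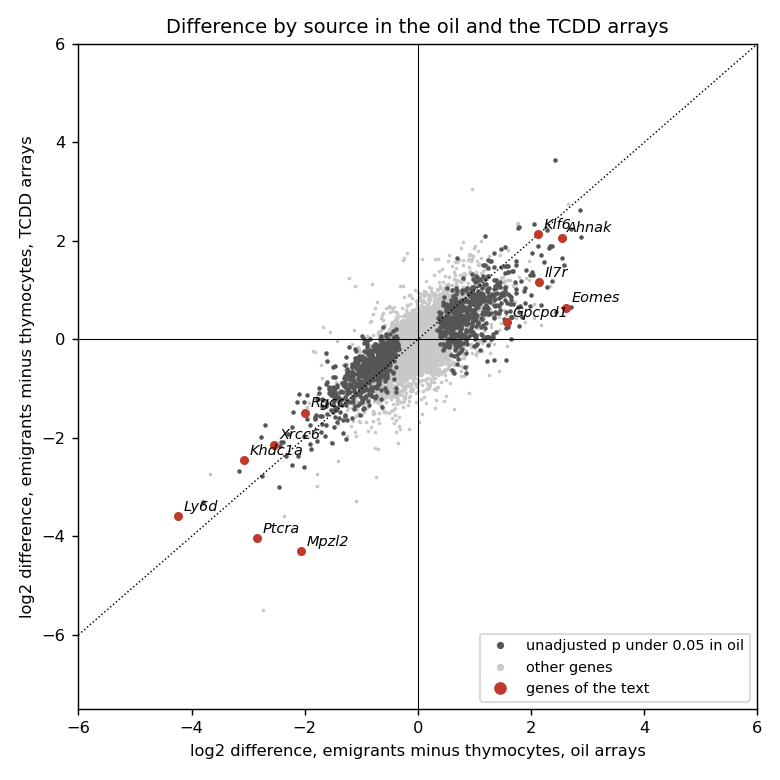
Log2 difference between emigrants and thymocytes in the oil arrays (x axis) and in the TCDD arrays (y axis) for 12394 genes, dark where the unadjusted limma p in oil is under 0.05, with 11 genes of the text in red and a dotted line of equal difference. Of the dark points, 94.3% have the same sign on both axes, and Gpcpd1 and Eomes lie far below the line.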

How the data were processed

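The authors deposited log2 values made with RMA, per the submitters' processing notes, for 22690 probe sets on 8 arrays. The version and the annotation used are not given in the sources used here. The deposited log2 values ran from 2.54 to 13.9, with array medians of 4.81 to 4.91. The number of arrays limits the precision. Of the probe sets, 20393 had 1 gene symbol, 691 had several and 1606 none, and 20364 were found by gene ID in the RefSeq table of GRCm38.p6, which updated their symbols. For each of 12394 genes the probe set brightest on average across the 8 arrays was kept. 4958 genes had more than 1 probe set.

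limma 3.58.1 in R 4.3.3 fitted the means of the 4 groups and moderated the spread with eBayes. The contrast was oil emigrants minus oil thymocytes, two-sided, with Benjamini-Hochberg adjustment over all genes and a threshold of 0.05. On simulated data for this comparison over 12394 genes, the fit recovered 28.4% of 67 differences of 1 log2 unit, 68.7% of 67 of 2 units and 90.9% of 66 of 4 units. It called 4 genes that had none. The simulated arrays had independent normal noise, with the spreads shuffled over genes. In the data, deviations of same-numbered oil and TCDD arrays had an r of 0.495 in emigrants and 0.759 in thymocytes. The recovered shares may therefore not hold for these data. With under 5 genes past the threshold, the named genes were the 10 with the smallest p in each direction, up to 6 members of each list with the smallest p, and a fixed set of markers, and the text gives a part of them. Because no gene passed, the reading in the TCDD arrays used the genes with an unadjusted p under 0.05, a choice made after the data were seen. The groups, members and gene lists were chosen with earlier results of these data known. The alternatives were other scalings, filters, probe set rules and priors, the replicate number as a block, the 4 oil arrays alone, grouping emigrants oil 1 by its Treatment field, and each array left out in turn.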

Additional observations from a re-analysis of the deposited data

Results flagged for a closer look

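Elane, the neutrophil elastase gene, had its sources in opposite order under oil and under TCDD, with no overlap in either. It lay at 6.17 and 6.27 in oil emigrants and 6.76 and 6.43 in oil thymocytes, and at 6.89 and 6.78 in TCDD emigrants and 6.31 and 6.26 in TCDD thymocytes. The log2 difference under oil (-0.38) minus that under TCDD was -0.93, and in limma the test of this difference over all genes had an adjusted p of 1.00. In all, 197 genes (1.59%) showed opposite order without overlap.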

How the results depend on the processing

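limma called 0 genes at an adjusted p under 0.05 in all settings except a pair of them. With the probe sets of a gene averaged it called 1, Il7r, at a log2 difference of 2.39. With emigrants oil 1 moved to TCDD, as its Treatment field has it, it called 3, which were Fstl1, Col1a1 and Cotl1, and it called 1 gene for the difference between oil and TCDD. In that setting 1 emigrant array stood for oil and was assumed to vary like the other groups. The number with an unadjusted p under 0.05 ran from 758 to 1600 with 1 array left out and was 1848 of 20393 with every probe set on its own, against 1186. The number of genes without overlap, 4876, was 2738 with the brighter genes alone, 7926 with every probe set, 8008 with the Treatment field, and 8008 to 9642 with 1 oil array left out, since fewer arrays or other numbers of features enter it. Among genes of the text, other bright probe sets gave a log2 difference smaller than the one used by over 1.5 times for Yaf2 (0.59), Ebna1bp2 (-0.49), Ccr2 (1.02), Cd160 (0.64), Il2rb (0.08), Slc40a1 (0.31), Gbp2 (0.67), Btg2 (-0.42), Cd24a (-1.18), Foxp1 (0.52 at the lowest), H2-K1 (0.30 at the lowest) and Rfc4 (-1.30), beside those named above. For Mcm2 another gave a larger one (-1.79).

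The titles number the arrays of each group 1 and 2. Deviations of same-numbered oil emigrants and oil thymocytes had an r of 0.109. Those of same-numbered oil and TCDD arrays had an r of 0.495 in emigrants and 0.759 in thymocytes. Whether the numbers pair arrays is not stated in the labels. With the replicate number as a fixed block limma called 0 genes (1577 at an unadjusted p under 0.05), and with a random block within source also 0 (1229). The difference between oil and TCDD gave 0 genes under either block.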
